A study of Gallus gallus with 6 samples.

Results

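The glutathione S-transferase genes of the chicken jejunum were followed in 6 RNA-seq libraries. The set holds 10 of the 24356 genes listed. It was defined by name and takes in the cytosolic classes alpha (GSTA2, GSTA3, GSTA4 and GSTAL1), mu (GSTM2), theta (GSTT1 and GSTT1L), omega (GSTO1) and zeta (GSTZ1), together with the mitochondrial kappa class (GSTK1). Of these, 7 were found by the gene symbol in the table and 3 by NCBI gene ID. GSTA4 is listed there as GSTA4L, while GSTT1L and GSTAL1 carry a description but no symbol. The RefSeq gene table used here for names (assembly GRCg7b) calls the gene listed as GSTO1 by the name GSTO2. All 10 genes passed the filter on low values, a mean FPKM of at least 0.5, which left 14282 genes to test.

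The libraries were made from poly(A) RNA of the jejunum of Korat chickens, a slow-growing Thai crossbred line, at 10 weeks of age, with 1 library per bird. The feed conversion ratio (FCR) is the feed eaten per unit of weight gained. The low-FCR group holds birds L1, L2 and L3 and the high-FCR group birds H1, H2 and H3, all fed the same sequence of diets. All birds were fasted and then stunned with chloroform before the jejunum was taken. The birds were the extremes of a larger flock, described as males, and RNA came from whole jejunum segments, so fewer cells of a type and less RNA per cell cannot be told apart. The deposited title of H3 reads low-FCR, although the code H3 and the grouping of the study make it a high-FCR bird, and it was analysed as one.

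Total counts ranged from 10436038 to 11370043 per library. Levels of a gene in the birds are given as CPM, counts relative to the TMM-scaled library size, and where 3 values of a group follow each other they are in the order L1, L2, L3 or H1, H2, H3. On this scale a count of 3 equals 0.249 to 0.304 CPM, a limit that covers counting error only. The lowest count of any of the 10 genes in any bird was 24. L1 stood apart from the other libraries, with 16140 counts from genes of chromosome W, which is female-specific, against 48 to 80 in each other library. FABP2, the intestinal fatty acid-binding protein, ranged from 69.6 to 1252 CPM, and CDX2, a transcription factor of the intestinal epithelium, from 59.4 to 130.1 CPM, so both were present in every bird. Where L1 was the extreme bird, values without it are given for the main results.

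Glutathione S-transferases join the thiol of glutathione to electrophilic compounds, such as dietary toxins, drugs and products of lipid peroxidation, which makes them more soluble and prepares them for export. Several members also isomerise or reduce their substrates. The intestinal epithelium and the liver are known as main sites of these enzymes, and many of their genes are known targets of the transcription factor NRF2 (NFE2L2) in mammals. The classes differ in sequence and preferred substrates, and genes of a class often lie side by side.

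The alpha class genes lie together on chromosome 3 of GRCg6a, from 88374105 to 88429051, a span of 54.9 kb on the plus strand. The theta class genes lie next to each other on chromosome 15, from 8386812 to 8406821. GSTM2 lies on chromosome 26 from 1266391 to 1268447, GSTO1 on chromosome 6 from 25196883 to 25205695, GSTZ1 on chromosome 5 from 39387369 to 39397465 and GSTK1 on chromosome 1 from 78425057 to 78436557. Some of these gene models share bases. GSTA2 spans the whole of GSTAL1 (12293 bases) and 23544 bases of a further alpha class gene, GSTAL2, all on the same strand. Reads within shared exons may have been dropped or assigned to one gene, so the counts of GSTA2, GSTAL1 and GSTAL2 are uncertain. The same holds, to an extent not measured here, for reads shared by similar copies, such as GSTT1 with GSTT1L. GSTZ1 shares 292 bases with POMT2 on the opposite strand, and the strand setting of the counting is not given in the sources used here.

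GSTM2 was the most abundant of the 10 genes per length of transcript. On the scale of FPKM, which divides by exonic size, its level was 548 ± 198 (SD, n = 6 birds), or 57.8% of the summed FPKM of the 10 genes as a mean over birds. GSTA3 followed at 198 ± 105 FPKM and 21.3%, and GSTO1 at 80.8 ± 21.9 FPKM and 8.63%. GSTA2 (28.3 FPKM), GSTT1L (27.3), GSTK1 (22.8) and GSTT1 (14.6) came next, then GSTAL1 (9.30), GSTA4 (5.53) and GSTZ1 (5.02). Every pair of neighbours in this order overlapped in its range over birds. GSTM2 was above GSTA3 in 5 of 6 birds, and GSTA3 was above GSTO1 in 6 of 6. The exception was L3, in which GSTA3 stood at 362 FPKM and GSTM2 at 264, so that the alpha class made up 56.0% of the summed FPKM there, against 12.9% to 23.5% in the other birds.

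**Figure D1:**
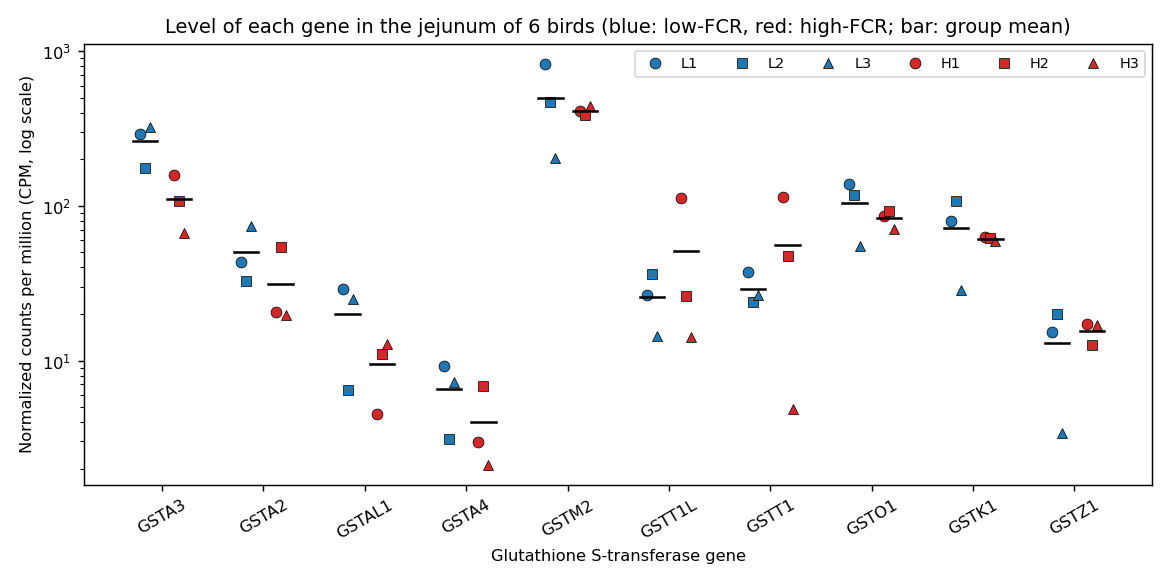
Normalized CPM (y axis, log scale) of the 10 glutathione S-transferase genes (x axis) in the low-FCR birds (blue) and high-FCR birds (red), with 1 point per bird and a bar at each group mean. GSTA3 is the gene in which all blue points lie above all red points, and H1 is the highest point for both theta class genes.

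GSTA3 had the higher mean in the low-FCR jejunum, and its groups did not overlap. This enzyme of the alpha class conjugates lipid peroxidation products and, in humans, also isomerises steroid hormone precursors. It had 293, 177 and 325 CPM (low-FCR birds) and 158, 108 and 67.1 CPM (high-FCR birds). Each low-FCR bird lay above each high-FCR bird, although L2 and H1 were close. Of all tested genes, 6.36% had no overlap of the groups in either direction and 2.97% had all low-FCR birds above. The group means were 265 ± 78.2 CPM (SD, n = 3 birds) and 111 ± 45.4 CPM (SD, n = 3), a log2 FC of the low-FCR over the high-FCR group of 1.26 (standard error 0.36). By edgeR's quasi-likelihood test the unadjusted p was 0.00767, and the adjusted p over all tested genes was 0.997, beside 3.24% of the tested genes with an unadjusted p under 0.05 and 0% with an adjusted one. The log2 FC was 1.18 without L1 and 0.995 without H3. It was 0.70 with H3 grouped as low-FCR (unadjusted p = 0.249, edgeR). The identity numbers of H2 and H3 have fewer digits than those of the other birds. They were read here as another number series, which no label states. On that reading, no high-FCR bird but H1 can be compared within a series. Adding the number series to the model, which sets the low-FCR birds against H1 alone, gave 0.75.

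The other alpha class genes were also higher on average in the low-FCR group, but their groups overlapped. GSTAL1 had 29.0, 6.43 and 25.0 CPM (low-FCR birds) and 4.53, 10.95 and 12.9 CPM (high-FCR birds). L1 and L3 were thus the highest birds, while L2 lay among the high-FCR birds. Its log2 FC was 1.09 (standard error 0.59), which became 0.72 without L1 and 2.15 with the number series in the model. GSTA4, whose mammalian counterpart is known for conjugating the lipid peroxidation product 4-hydroxynonenal, had 9.23, 3.13 and 7.22 CPM (low-FCR birds) and 2.96, 6.89 and 2.12 CPM (high-FCR birds). Again L1 and L3 were highest, with H2 just below them, and the log2 FC was 0.71 (standard error 0.59) and 0.37 without L1.

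GSTA2, an alpha class enzyme known in mammals for reducing organic hydroperoxides, had 43.4, 32.5 and 74.2 CPM (low-FCR birds) and 20.8, 54.0 and 19.7 CPM (high-FCR birds). H2 lay second of all birds and separated from H1 and H3. The log2 FC was 0.67 (standard error 0.46), and it ranged from 0.27 without L3 to 1.31 without H2. With the number series in the model the log2 FC was 1.27 for GSTA2 and 1.13 for GSTA4. Taking H3 as low-FCR gave 0.18 and 0.14, and leaving H3 out gave 0.42 and 0.40. None of GSTA2, GSTA4 and GSTAL1 had an unadjusted p under 0.05 (0.0995 to 0.26, edgeR). The summed alpha class had 375, 219 and 431 CPM (low-FCR birds) and 186, 180 and 102 CPM (high-FCR birds), a sum in which GSTA3 is the largest part. The ratio of GSTA3 to GSTA2, on FPKM, varied from 3.08 in H2 to 11.7 in H1, so it was not fixed from bird to bird. The counts of GSTA2 are uncertain, as its gene model shares bases with GSTAL1 and GSTAL2.

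**Figure D2:**
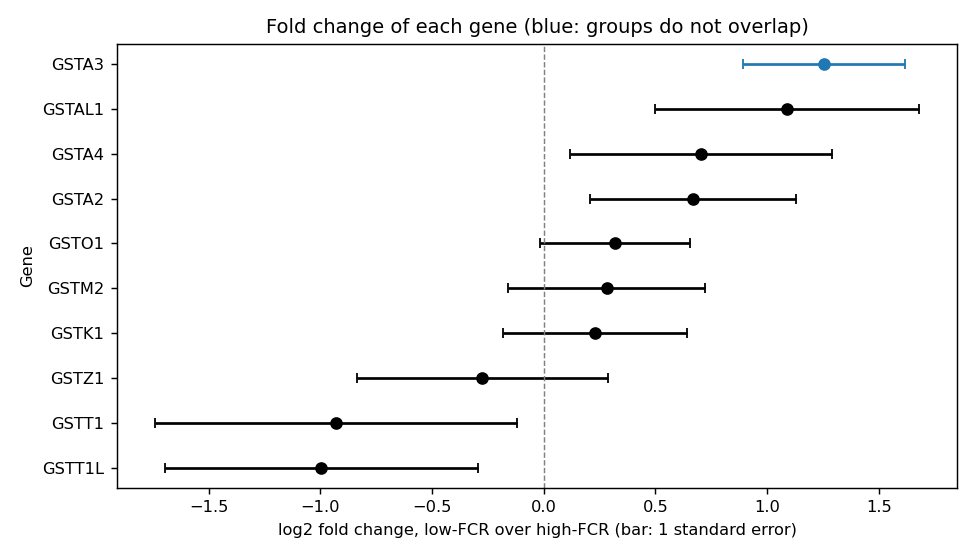
The log2 fold change of each of the 10 genes (y axis), low-FCR over high-FCR, with a bar of 1 standard error from edgeR's fit (x axis, log2 units). The 4 alpha class genes have the most positive values and the theta class genes the most negative, and GSTA3, in blue, is the gene whose groups do not overlap.

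For both theta class genes H1 was the highest and H3 the lowest bird. In mammals, theta class enzymes act on small halogenated compounds and organic hydroperoxides. GSTT1 had 37.1, 23.9 and 26.4 CPM (low-FCR birds) and 114, 47.8 and 4.85 CPM (high-FCR birds). The high-FCR group thus held both the highest and the lowest bird, with a 23.5-fold range, and 1.37% of the tested genes had a range over the birds at least as wide. GSTT1L had 26.6, 36.2 and 14.4 CPM (low-FCR birds) and 113, 26.2 and 14.2 CPM (high-FCR birds). H1 was again highest, and H3 was level with L3.

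H3 was at 0.131 of the median of the other birds for GSTT1 and at 0.534 for GSTT1L. H1 exceeded the next bird 2.38-fold for GSTT1 and 3.13-fold for GSTT1L. In 37 of 14277 tested genes (0.259%) H1 was at least as far above the next bird as for GSTT1, and in 17 genes (0.119%) as for GSTT1L. The log2 FC was -0.93 for GSTT1 (standard error 0.81) and -0.996 for GSTT1L (standard error 0.70). Without H1 the values were 0.15 and 0.35, so the direction of both rested on this bird. Without H3 they were -1.47 and -1.44, and with H3 grouped as low-FCR -1.81 and -1.61. With the number series in the model, which sets the low-FCR birds against H1 alone, they were -1.97 and -2.14. Smaller values came from limma on log2(FPKM + 0.5), at -0.23 and -0.63, and from the replicate block, at -0.23 and -0.52.

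The neighbours of the theta class genes on chromosome 15, chosen after values had been seen, had no such level in H1. DDX51, an RNA helicase gene that ends 1.33 kb before GSTT1L, was at 53.4 CPM in H1 and 47.5 to 80.7 in the other birds. DDT, which encodes D-dopachrome tautomerase and begins 1.19 kb after GSTT1, was at 84.1 CPM in H1, next to 83.3 in L1 and 75.3 in H2. DDT was lowest in H3, at 24.3 CPM, the bird in which both theta class genes were lowest. MIF, a cytokine gene of the same family as DDT, was lowest in H1, at 33.3 CPM.

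**Figure D3:**
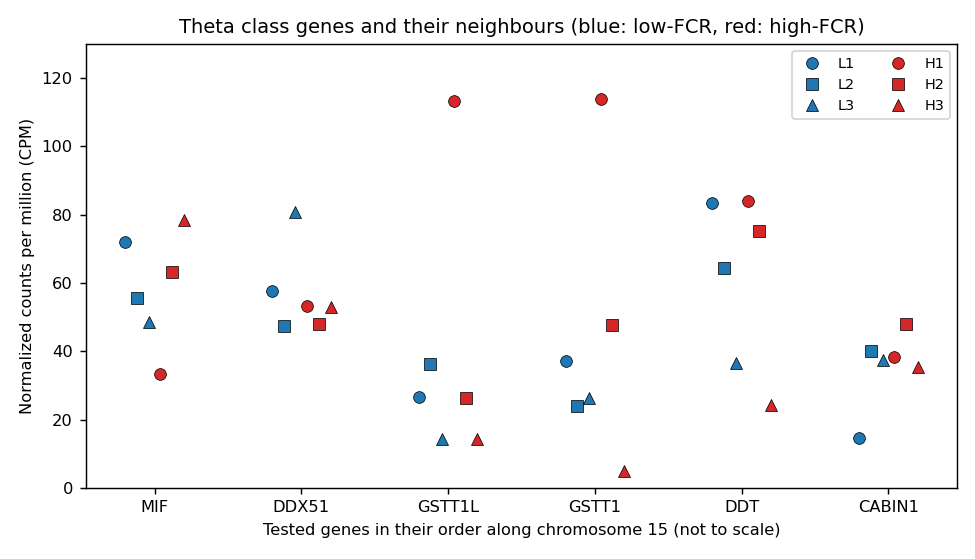
Normalized CPM (y axis) in each bird of the theta class genes and of the tested genes beside them, in their order along chromosome 15 (x axis). H1 stands at 113 and 114 CPM for GSTT1L and GSTT1, far above the other birds, and within their range for DDX51 and CABIN1.

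GSTM2, GSTO1, GSTK1 and GSTZ1 had smaller differences between the groups than between the low-FCR birds. GSTM2, the mu class enzyme, conjugates a wide range of electrophiles. It had 829, 473 and 205 CPM (low-FCR birds) and 410, 385 and 445 CPM (high-FCR birds). The low-FCR birds lay on both sides of the high-FCR birds, with a coefficient of variation of 62.2% against 7.28%. The log2 FC was 0.28 (standard error 0.44), which became -0.29 without L1, 0.66 without L3 and -0.03 with limma on log2 FPKM.

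GSTO1, an omega class enzyme known in mammals for reducing dehydroascorbate and arsenic compounds, had 140, 118 and 54.9 CPM (low-FCR birds) and 85.7, 93.2 and 71.5 CPM (high-FCR birds). L1 and L2 lay above all high-FCR birds and L3 below them. Its log2 FC of 0.32 (standard error 0.34) was 0.05 without L1 and 0.62 without L3. GSTK1, an enzyme of mitochondria and peroxisomes, had 80.3, 107 and 28.7 CPM (low-FCR birds) and 63.2, 61.7 and 59.3 CPM (high-FCR birds). The same split of the low-FCR birds appeared, and the high-FCR birds differed little. Its log2 FC was 0.23 (standard error 0.41), with -0.20 without L2, 0.61 without L3 and -0.06 with limma on log2 FPKM.

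GSTZ1, the maleylacetoacetate isomerase of tyrosine breakdown, had 15.2, 20.1 and 3.38 CPM (low-FCR birds) and 17.2, 12.5 and 17.1 CPM (high-FCR birds). L3 was far below all other birds. The log2 FC was -0.27 (standard error 0.56) and 0.18 without L3. L3 was the lowest bird for all 4 of these genes, while it was highest or second for the 4 alpha class genes.

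**Figure D4:**
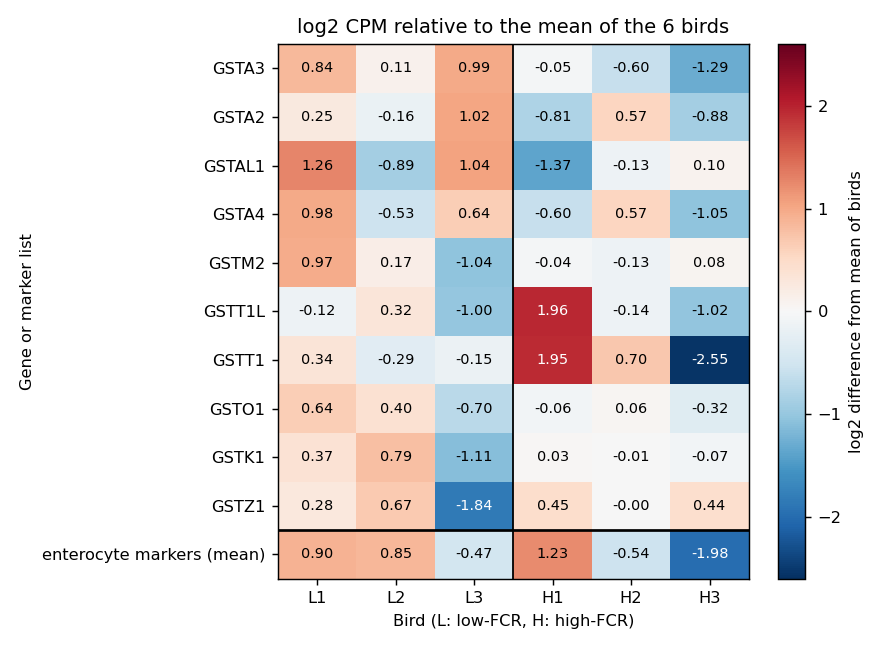
Log2 CPM of the 10 genes (rows) relative to the mean of the 6 birds (columns), with the mean over 20 enterocyte markers in the bottom row. L3 is positive for the alpha class (0.64 to 1.04) and negative for GSTM2, GSTO1, GSTK1 and GSTZ1 (-1.84 to -0.70), and H1 stands at 1.96 and 1.95 for the theta class genes.

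Over the set, 7 of the 10 genes had a higher and 3 a lower mean in low-FCR birds, and the sign of GSTM2 and GSTK1 was the other one with limma on log2 FPKM. Their median log2 FC was 0.30, beside a median of 0.02 over all tested genes, of which 51.8% were higher. The groups did not overlap in 1 gene, GSTA3, beside 6.36% of all tested genes in either direction and 2.97% with all low-FCR birds above. An unadjusted p under 0.05 was reached by GSTA3 alone, beside 3.24% of the tested genes, and the other members had values of 0.0995 to 0.636 (edgeR). Which genes passed changed with the model. With H3 grouped as low-FCR, GSTT1 (unadjusted p = 0.0210, edgeR) and GSTT1L (0.0214) passed in place of GSTA3. In that fit 2.18% of the tested genes had an unadjusted p under 0.05. The fit with the number series sets the low-FCR birds against H1 alone, so only its log2 FC is given. It was 0.75 for GSTA3, -2.14 for GSTT1L and 2.15 for GSTAL1. No gene of the set passed adjustment, and across all genes 0 of 14282 (0%) had an adjusted p under 0.05 by edgeR, with 463 at an unadjusted p under 0.05. DESeq2 called 8 genes, none of them in the set, and gave GSTA3 an adjusted p of 0.345. The ratio of the highest to the lowest bird ranged from 2.54 for GSTO1 to 23.5 for GSTT1, with a median of 4.60 beside 2.26 over all tested genes, and it exceeded the latter in all 10 genes.

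The summed level of the 10 genes came to 1502, 997 and 764 CPM (low-FCR birds) and 989, 806 and 714 CPM (high-FCR birds). L1 was highest, mostly through GSTM2, and the groups overlapped. The log2 ratio of the group means was 0.38, and 0.07 without L1. Without GSTM2 the sum was 674, 524 and 559 CPM in the low-FCR birds and 579, 421 and 269 in the high-FCR birds, so H1 lay above L2 and L3.

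Transcripts of absorptive enterocytes also differed between the birds. Of 24 markers, 20 were tested, and 1 of these, ANPEP, had an unadjusted p under 0.05, beside 3.24% of all tested genes. Of the 20 markers, 17 were higher and 3 lower on average in the low-FCR group. Without H3, 12 were higher and 8 lower, and with H3 grouped as low-FCR 5 were higher and 15 lower. Without H1, 20 were higher and 0 lower, and the median log2 FC moved from 0.56 to 1.73. In that fit 10 had an unadjusted p under 0.05 (edgeR), beside 2.93% of all tested genes, and 0 passed adjustment. With the number series in the model, which sets the low-FCR birds against H1 alone, the median was -0.42. Their summed level was 8114 to 19430 CPM in the low-FCR birds and 3755 to 18120 in the high-FCR birds. Their mean level, as log2 CPM centred on the 6 birds, was 0.90, 0.86 and -0.47 (low-FCR birds) and 1.23, -0.54 and -1.98 (high-FCR birds). By this mean, H1 and H3 were the extremes for these markers as for both theta class genes, while by the sum L1 was highest. H3 was also lowest for GSTA2, GSTA3 and GSTA4. L3, which was high for the alpha class, was below the mean for these markers. The part of enterocyte content in the levels of the 10 genes was not tested.

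Markers of liver, another site of these enzymes, had low levels. ALB, which encodes albumin, was at 2.32 to 4.64 CPM, with each low-FCR bird above each high-FCR bird. Of all tested genes, 2.97% had this order and 6.36% had no overlap in either direction. Among the 7 tested hepatocyte markers, 2 had no overlap. The 7 tested hepatocyte markers summed to 43.7 to 72.1 CPM in the low-FCR birds and 34.4 to 68.1 in the high-FCR birds, with 5 higher and 2 lower on average. Of 16 markers of the exocrine pancreas 5 were tested, and PRSS2 had 0 counts in every bird. The 5 summed to 33.4 to 108 CPM in the low-FCR birds and 30.8 to 47.0 in the high-FCR birds. AMY1A, an amylase gene, made up most of this sum, at 25.7 to 84.7 CPM over the birds. The 7 tested markers of the distal small intestine summed to 290 to 5075 CPM in the low-FCR birds and 118 to 841 in the high-FCR birds. The sum was highest in L1, where FABP6 alone was at 4587 CPM, beside 13.5 to 653 CPM in the other birds. Of these markers 6 were higher and 1 lower on average, and without L1 4 were higher and 3 lower.

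The remaining marker lists are given by their counts. Of the tested markers, 4 of 5 for goblet cells, 9 of 10 for smooth muscle, 7 of 8 for enteric neurons and 2 of 2 for red blood cells were higher on average in the low-FCR group, and 7 of 8 for T cells and 4 of 5 for plasma cells were lower. At an unadjusted p under 0.05 there were 1 for goblet cells, 1 for enteric neurons, 2 for red blood cells and 2 for T cells. Of all tested genes 3.24% had such a p. None passed adjustment. Without L1, 0 of 10 smooth muscle markers were higher and 10 were lower, so their direction rested on L1. Without H3, 3 of 8 T cell markers were higher and 5 lower, and with H3 grouped as low-FCR 6 were higher and 2 lower. Without H2, 4 of 5 plasma cell markers were higher and 1 lower, so their direction rested on H2. Their sum was 3949 CPM in H2 and 1182 to 2512 in the other birds. The summed T cell markers were highest in H3, at 1734 CPM beside 605 to 1151 in the other birds. Those of smooth muscle were highest in L1, at 20870 CPM beside 5210 to 13660. The part of these cell types in the levels of the 10 genes was not tested.

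Glutathione transferases outside the set included the sigma class HPGDS, the microsomal MGST enzymes, which belong to an unrelated membrane family, and further alpha and mu class genes. Of 18 listed by name, 11 were tested, and the low-FCR mean was the higher one in 9 and the lower one in 2 (median log2 FC 0.40). Without L1 it was the higher one in 6 and the lower one in 5, with a median of 0.01. Without L3 it was the higher one in 11 and the lower one in 0, with a median of 0.47. In the fit without L3, 3 had an unadjusted p under 0.05 (edgeR), beside 3.32% of all tested genes, and 0 passed adjustment. HPGDS, which makes prostaglandin D, had 364, 240 and 186 CPM (low-FCR birds) and 182, 167 and 95.1 CPM (high-FCR birds). Its groups did not overlap, although L3 and H1 nearly met, and the log2 FC was 0.83 (standard error 0.34; unadjusted p = 0.0388 and adjusted p = 0.997, edgeR). Without L1 its log2 FC was 0.52 (unadjusted p = 0.139, edgeR). GSTAL3 ends 7.24 kb before the first alpha class gene of the set. It was at 4.11 to 7.41 CPM in the low-FCR birds and 3.15 to 3.49 in the high-FCR birds, again without overlap. The groups did not overlap in 2 of the 11 genes. Of all tested genes, 6.36% had no overlap in either direction and 2.97% had all low-FCR birds above. HPGDS was the 1 gene of the 11 with an unadjusted p under 0.05, beside 3.24% of all tested genes. GSTAL2, which shares bases with GSTA2, was highest in H1 at 124 CPM and lowest in H3 at 49.8, with a log2 FC of 0.27 (standard error 0.33), or -0.17 if H3 is taken as low-FCR. GSTM3, which lies 0.685 kb after GSTM2, was at 208, 122 and 63.4 CPM in L1, L2 and L3, so L1 was highest and L3 low, as for GSTM2. Its log2 FC of 0.53 was 0.02 without L1.

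Genes of glutathione synthesis, reduction and breakdown supply or remove the shared substrate. Of 20 tested, 14 had the higher and 6 the lower mean in low-FCR birds (median log2 FC 0.32). An unadjusted p under 0.05 was found for 3, all with the higher mean, beside 3.24% of all tested genes in either direction. Without L1 the list was split 10 to 10, with a median of 0.01. In that fit 2 had an unadjusted p under 0.05, beside 2.49% of all tested genes. The 3 genes were CHAC1, which cleaves glutathione, ANPEP, a brush border aminopeptidase that acts on the dipeptide product, and GPX1, a peroxidase that uses glutathione. CHAC1 had 12.7, 5.36 and 16.0 CPM (low-FCR birds) and 3.31, 3.15 and 4.05 CPM (high-FCR birds), with no overlap and a log2 FC of 1.69 (standard error 0.47). It was selected by the study on these libraries and is not independent evidence. GPX1 had a log2 FC of 1.22 (standard error 0.49) with L3 at 498 CPM. L1 and L2 were at 169 and 125 CPM, so L2 lay within the high-FCR birds, which had 92.1 to 141 CPM. Without L3 its log2 FC was 0.37 (unadjusted p = 0.207, edgeR).

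Among targets and regulators of NRF2, 22 of 27 tested genes had the higher and 5 the lower mean in low-FCR birds (median log2 FC 0.18), with 0 at an unadjusted p under 0.05. Without L1 the split was 17 to 10 (median 0.03), and with H3 grouped as low-FCR 15 to 12. The groups did not overlap in 3 of these genes, beside 6.36% of all tested genes in either direction. Of the 3, FTH1 and TXN were higher and NQO2 lower in low-FCR birds. FTH1, the ferritin heavy chain, had 4485, 2707 and 4397 CPM (low-FCR birds) and 2490, 2164 and 2600 CPM (high-FCR birds), without overlap (log2 FC 0.68, standard error 0.32). NQO2, a quinone reductase, had 26.9, 20.3 and 20.8 CPM (low-FCR birds) and 34.8, 28.4 and 27.3 CPM (high-FCR birds), a log2 FC of -0.41 (standard error 0.26). NFE2L2 itself ranged from 114 CPM in H3 to 195 in L3. Of 11 tested xenobiotic receptors and their partners, 8 were higher and 3 lower on average (median log2 FC 0.22). PPARA, a receptor of fatty acids, was at 17.0 CPM in H1 and 18.3 in L1, the birds nearest to each other, with no overlap. Its log2 FC was 0.88 (standard error 0.36, unadjusted p = 0.0390, edgeR). PPARA was the 1 gene of this list with an unadjusted p under 0.05, beside 3.24% of all tested genes. The groups did not overlap in 2 of the 11, beside 6.36% of all tested genes in either direction. With H3 grouped as low-FCR the list was split 6 to 5, and the log2 FC of PPARA was 0.41. HNF4A, a transcription factor of enterocytes, was at 17.9 CPM in L1 and 12.98 in L3 and at 59.1 to 71.7 in the other birds.

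Genes for the export of conjugates and their further trimming to mercapturates were split, with 3 of 8 tested genes higher and 5 lower on average and a median log2 FC of -0.04. Without L1, 5 were higher and 3 lower. Beside 3.24% of all tested genes, the 1 gene of this list with an unadjusted p under 0.05 was again ANPEP. This gene stands in both of these lists and among the enterocyte markers, so it is 1 call counted in 3 lists. It was at 2164 to 4224 CPM in the low-FCR birds and 1176 to 1885 in the high-FCR birds (log2 FC 0.93, standard error 0.37), and its log2 FC was 0.54 without L1 (unadjusted p = 0.134, edgeR). DPEP1, a dipeptidase of the same route, reached 576 CPM in L1, beside 72.4 to 166 elsewhere, and its log2 FC of 1.22 was 0.02 without L1. Of 8 tested genes of the pathways that zeta and other classes serve, 5 were higher and 3 lower, with a median log2 FC of 0.05 and 0 at an unadjusted p under 0.05. Without L1, 2 were higher and 6 lower, with a median of -0.20. Without L3, 6 were higher and 2 lower, with a median of 0.29.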

How the data were processed

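Libraries of poly(A) RNA from 6 birds were analysed. The authors trimmed reads with Cutadapt 1.9.1, used HISAT2 2.0.1 for alignment (build GRCg6a) and HTSeq 0.6.1 for counting, and deposited whole-number counts per Ensembl gene. The deposited FPKM equal the count divided by exonic size and library total (100% of values within 0.0051). The strand and overlap settings of the counting are not given in the sources used here. Counts of the 14282 genes whose mean FPKM reached 0.5 were tested with edgeR 4.0.16 in R 4.3.3 (TMM, quasi-likelihood test, Benjamini-Hochberg adjustment over all of them). The standard error of a log2 FC is its size, fitted with no prior count, over the square root of F. The tests were tested on simulated data.

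The 10 genes and the 16 gene lists were chosen with earlier results of these data known. All 10 genes are named, with genes from the 4 of smallest p per list and the 3 genes most alike in pattern to each of the 3 most abundant. Not all of those 4 are named in each list, and MAFK, SQSTM1, CEBPB and RXRA are among those left out. Other genes (FABP2, CDX2, ALB, PRSS2, NFE2L2, TXN, GSTAL2 and those beside the theta class genes) were chosen after their values were seen. Alternatives were RLE and upper-quartile factors, no filter, DESeq2 1.42.0, limma 3.58.1 on log2(FPKM + 0.5) or log2(FPKM + 0.1), a replicate block, H3 as low-FCR, the number series of the birds in the model and each library left out. List counts and the summed level under left-out libraries or regrouping were added after seeing the data. Promoter motifs were not searched, as no sequence was used here.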

Additional observations from a re-analysis of the deposited data

How the results depend on the processing

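Of 150 values of the 10 genes under 15 alternatives, 141 kept their direction, and 0 genes of the set passed adjustment in any of these fits. With limma on log2(FPKM + 0.5) and on log2(FPKM + 0.1), the log2 FC turned to -0.0594 and -0.0645 for GSTK1 and to -0.0308 and -0.0310 for GSTM2, where the median over all tested genes moved from 0.02 to -0.092 and -0.103. With a library left out, it ranged from -0.20 to 0.61 for GSTK1, from -0.29 to 0.66 for GSTM2, from -0.77 to 0.18 for GSTZ1, from -1.47 to 0.15 for GSTT1 and from -1.44 to 0.35 for GSTT1L. The number of genes with an adjusted p under 0.05 was 8 with DESeq2 and 2 with the replicate block. The number with an unadjusted p under 0.05, 463 as reported, was 710 without the FPKM filter, 172 with the number series of the birds in the model and 293 to 1416 with a library left out, the highest without L2 and the lowest without H2, with 307 without H3. Without the filter 19970 genes were tested in place of 14282, so the 710 were 3.56% of them, beside 3.24% with the filter. The cause of the other changes in number was not tested. Among the 10 genes, an unadjusted p under 0.05 (edgeR) was also found without L2 for GSTAL1 (0.0121), without L3 for GSTO1 (0.0274) and GSTK1 (0.0290), without H2 for GSTA2 (0.0136) and without H3 for GSTT1 (0.00688) and GSTT1L (0.0446). Of all tested genes, 9.92% had such a p without L2, 3.32% without L3, 2.05% without H2 and 2.15% without H3. The shares were 2.49% without L1 and 2.93% without H1. GSTA3 had an unadjusted p under 0.05 (edgeR) with each of the 6 libraries left out. Birds of the same number deviated together with correlations of 0.172, 0.158 and 0.000440. Birds of unlike number were not compared, so these values cannot tell whether the numbers pair the birds. The 10 genes had at least 24 counts in each bird.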

Other observations

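The genes whose log2 CPM over the 6 birds was most like that of the most abundant members were picked as the highest of 8040 genes with a symbol and a mean FPKM of at least 5, so high values of Pearson's r are to be expected from the choice alone and are given as a description. For GSTM2 they were ATP5MC1 (r = 0.994), a subunit of ATP synthase, CG-1B (r = 0.994), a galectin gene, and NDUFV1 (r = 0.992), a subunit of complex I. NDUFV1 was at 263, 163 and 75.5 CPM in L1, L2 and L3 and at 129, 129 and 136 CPM in H1, H2 and H3, so L1 was highest and L3 lowest, as for GSTM2. For GSTO1 they were AKR7L (r = 0.994), an aldo-keto reductase gene, TKFC (r = 0.992), which encodes triokinase, and SELENOT (r = 0.989), a selenoprotein gene. For GSTA3 they were HAGHL (r = 0.984), TMEM183A (r = 0.983) and IFNGR2 (r = 0.975), a subunit of the interferon gamma receptor, and IFNGR2 ranged from 86.6 CPM in H3 to 165 in L3.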
